A study of Mus musculus with 75 samples.

Results

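The CXC chemokines described here are Cxcl9, Cxcl10, Cxcl11, Cxcl12, Cxcl13 and Cxcl16, the members of the family that are induced by interferon or made at rest. They were chosen by symbol, and 5 of the 6 had a row in both count tables, among 21051 symbols in the table of the untreated and 2 h libraries and 21076 in the 24 h table. No row with the symbol Cxcl11 was found in either table, and Cxcl11 was not analysed here.

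All 75 libraries were Smart-seq2 libraries made from total RNA of enteric glial cells (EGC in the labels) of mice with an eGFP (green fluorescent protein) reporter transgene. The libraries of the untreated and 2 h sets carry WT (wild type) in their labels. The untreated set held 22 libraries from adult mice: 5 from each of 2 colonic layers (myenteric and submucosal plexus) and 6 from each of the same layers of small intestine. The 2 h set held 16 libraries of the myenteric plexus, 4 per region and treatment, taken 2 h after 1 intraperitoneal injection of PBS or of lipopolysaccharide (LPS, from E. coli O111:B4) at 2 mg/kg. The 24 h set held 37 libraries of the myenteric plexus of 22 mice, taken 24 h after the same injections. Its mice were Gpr37WT (called wild type below) or Gpr37-/-, all with the eGFP reporter, so that the reporter was shared by every group and the deletion by the Gpr37-/- groups only. Gpr37 is a receptor of the G protein-coupled class found on glia. The small intestine gave 6 libraries of wild-type mice with PBS and 4 with LPS, and 4 and 5 of Gpr37-/- mice. The colon gave 4 and 5 of wild-type mice and 5 and 4 of Gpr37-/- mice. How the cells were isolated, and the animals' age in weeks, are not given in the sources used here.

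Chemokines are small secreted proteins that attract leukocytes through G protein-coupled receptors. Cxcl9, Cxcl10 and Cxcl11 are classical products of interferon signalling and share the receptor Cxcr3 of activated T and NK cells; Cxcl10 is also made early after Toll-like receptor stimulation, by way of interferon regulatory factors and NF-κB. Cxcl12 is made constitutively by stromal cells and acts through Cxcr4, with Ackr3 as a scavenging receptor. Cxcl13 draws B cells through Cxcr5 into lymphoid follicles and depends on lymphotoxin and TNF signals. Cxcl16 is made as a membrane-anchored protein, much of it by macrophages and dendritic cells, and binds Cxcr6.

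The 3 members that rose with LPS at one of the time points are Cxcl10, Cxcl9 and Cxcl13. Their promoters are shown because they are the sequences in which the motifs of interferon and NF-κB signalling were looked for. Each is the 250 bases upstream of the RefSeq start site on build GRCm38.p6, 5′ to 3′ on the gene's strand, in lower case, with motif matches in capitals. The intervals are chr5:92348890-92349139 (minus strand) for Cxcl10, chr5:92328080-92328329 (minus strand) for Cxcl9 and chr5:95956689-95956938 (plus strand) for Cxcl13.
Cxcl10: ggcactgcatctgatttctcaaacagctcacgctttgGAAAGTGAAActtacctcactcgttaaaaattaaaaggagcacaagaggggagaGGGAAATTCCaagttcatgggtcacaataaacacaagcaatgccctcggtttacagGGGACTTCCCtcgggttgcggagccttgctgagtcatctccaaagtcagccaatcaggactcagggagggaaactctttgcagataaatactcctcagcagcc
Cxcl9: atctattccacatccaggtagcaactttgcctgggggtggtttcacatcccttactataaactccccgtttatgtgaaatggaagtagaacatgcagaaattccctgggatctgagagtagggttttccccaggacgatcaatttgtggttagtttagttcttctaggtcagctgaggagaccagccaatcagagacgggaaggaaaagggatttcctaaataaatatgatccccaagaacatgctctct
Cxcl13: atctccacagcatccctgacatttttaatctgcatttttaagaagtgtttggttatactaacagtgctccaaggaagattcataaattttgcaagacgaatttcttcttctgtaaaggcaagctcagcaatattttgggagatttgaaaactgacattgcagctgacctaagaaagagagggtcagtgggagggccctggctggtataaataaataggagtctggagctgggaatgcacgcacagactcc
The search covered both strands for 3 motifs, namely the core of the interferon-stimulated response element (TTTC followed after any 2 bases by TTTC), the gamma-activated site (TTCNNNGAA) and the kappa-B site of NF-κB. Cxcl10 held 1 match to the first, GAAAGTGAAA, on the opposite strand from -213 to -204 relative to the start site, and 2 kappa-B matches, GGGAAATTCC from -159 to -150 and GGGACTTCCC from -103 to -94; no matches overlapped. None of the 3 motifs matched in the same window of Cxcl9, Cxcl13 or Cxcl12 (chr6:117168285-117168534, plus strand), which says only that these letters are not in those windows. Among 32851 RefSeq promoters of the same length, 2.98% held the first motif, 7.02% the second and 3.9% the kappa-B site. RefSeq promoter entries matched 4 of the 6 symbols.

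On GRCm38 with the GENCODE M21 gene models, Cxcl9 (ENSMUSG00000029417.9) lies at chr5:92321347-92328079 and Cxcl10 (ENSMUSG00000034855.13) at chr5:92346638-92348889, both on the minus strand, with Cxcl11 next to them. Cxcl13 (ENSMUSG00000023078.6) lies at chr5:95956951-95961068 and Cxcl12 (ENSMUSG00000061353.11) at chr6:117168535-117181367, both on the plus strand. Cxcl16 (ENSMUSG00000018920.11) lies at chr11:70453983-70459984 on the minus strand. The exons of Cxcl16 share 552 bases with those of Zmynd15, and those of Cxcl10 share 133 bases with those of Art3, in both cases on the opposite strand. Whether counting used the strand is not given in the sources used here, so reads from the shared bases cannot be assigned to one gene of each pair.

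Libraries of the untreated set held 2547296 to 9002546 counts in total, with a median of 5449398. Those taken at 2 h held 1990744 to 7883251 (median 4412983), and those at 24 h held 2882539 to 33283346 (median 8286820). Levels are given as CPM, the usual normalised count relative to a library's total. The totals were scaled by TMM factors, and 3 counts, taken as the floor of detection, correspond to 0.0933 to 1.46 CPM across the libraries. Glial identity was checked with 7 markers (Sox10, S100b, Gfap, Foxd3, Erbb3, Fabp7 and Entpd2). Their summed level was 602 to 3707 CPM in the myenteric libraries and 92.8 to 1257 CPM in the submucosal ones. The 18 Gpr37-/- libraries held 18 counts of Gpr37 in all, with at most 9 in 1 library. The 19 libraries labelled wild type held 1229, but 4 of the 9 with LPS held 3 or fewer. These were both libraries of mouse 3 (0 and 2 counts) and the colon libraries of mice 5 and 8 (0 each), while the other 15 held 20 to 158. So 3 of the 5 colon libraries labelled wild type with LPS hold almost no Gpr37. Mice numbered 10 and below, 12 of the 37 libraries, had a median of 15.4% of counts from mitochondrial genes, against 4.57% in the 25 libraries of mice numbered 11 and above. What this division reflects was not tested, and results that move with it or with the 4 libraries low in Gpr37 are given with and without them. In such bulk libraries, fewer cells of a type and less RNA per cell cannot be told apart. Each p-value sets a difference between groups against the spread between these libraries.

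At 2 h after LPS, Cxcl10 was the 1 member that rose, and it did so in both regions. It went from 52.3 CPM or less to 294 CPM or more, which was 114-fold in the small intestine and 33.7-fold in the colon on the fitted scale. Cxcl12 and Cxcl16 did not pass the test, and Cxcl9 stayed at or under 33.3 CPM. Cxcl13 had no count in any LPS library.

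In the small intestine, Cxcl10 was at 6.63, 6.82, 3.01 and 29.9 CPM in the 4 PBS libraries. After LPS it was at 644, 1738, 1482 and 1605 CPM. The lowest LPS library lay above the highest PBS library by more than an order of magnitude. The log2 fold change was 6.83 ± 0.83 (SE, n = 4 against 4; edgeR quasi-likelihood test, Benjamini-Hochberg adjusted p = 0.000165), and 7.99 without the highest PBS library, that of M4. It was 1 of 4 members tested, where 1.1% of all 13107 genes tested were called.

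In the colon, the PBS libraries held 17.5, 52.3, 5.0 and 19.1 CPM of Cxcl10. The LPS libraries held 294, 802, 957 and 1107 CPM, again with no overlap (3.85% of all genes tested had none). This was a log2 fold change of 5.08 ± 0.77 (edgeR adjusted p = 0.0022), with 0.778% of all genes called, and 5.82 without the PBS library of M2. Cxcl10 was the 1 member called among 4 tested. The change was not shown to differ between the regions: the difference, colon minus small intestine, was -1.76 ± 0.93 on the log2 scale (edgeR adjusted p = 1.0). For this difference edgeR called 0 of 13107 genes (0.0%), with 452 genes at an unadjusted p under 0.05. Of the 4 members, 1 was under that p, Cxcl9 and not Cxcl10, and DESeq2 called 0.

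Cxcl9, which shares the receptor of Cxcl10, was at 4.42, 0, 0 and 0.479 CPM in the PBS libraries of the small intestine. With LPS it was at 11.9, 27.3, 33.3 and 8.48 CPM, so that the groups did not overlap; 5.49% of all genes tested had groups that did not overlap in this comparison. The log2 fold change of 4.00 ± 1.85 did not pass the test (edgeR adjusted p = 0.931). In the colon the values were 12.8, 0, 2.67 and 0 CPM with PBS and 0, 1.2, 4.11 and 0.554 CPM with LPS, and the ranges overlapped. There the log2 fold change was -1.43 ± 1.70 (edgeR adjusted p = 1.0). The difference between the regions, -5.43 ± 2.49, did not pass either (edgeR adjusted p = 1.0).

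Cxcl12 was at 29.2 to 211 CPM in the small intestine with PBS and at 105 to 165 CPM with LPS, and at 124 to 403 and 89.2 to 339 CPM in the colon. Its log2 fold changes were 0.18 ± 0.50 and -0.24 ± 0.50 (edgeR adjusted p = 1.0 in both). Cxcl16 was at 34.7, 9.75, 53.6 and 107 CPM in the small intestine with PBS and at 129, 119, 125 and 84.0 CPM with LPS, and only the highest PBS library reached into the LPS range. Its log2 fold change was 1.15 ± 0.52 (edgeR adjusted p = 0.906), and in the colon 0.46 ± 0.52 (edgeR adjusted p = 1.0).

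Cxcl13 did not pass the filter on low counts at 2 h. It was at 0 in all 8 libraries of the small intestine and in all 4 LPS libraries of the colon. Among the PBS libraries of the colon it was at 51.1, 0, 10.7 and 0 CPM. An exact two-sided permutation test of the colon groups gave p = 0.429, where 4 against 4 libraries allow no p below 0.0286.

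**Figure D1:**
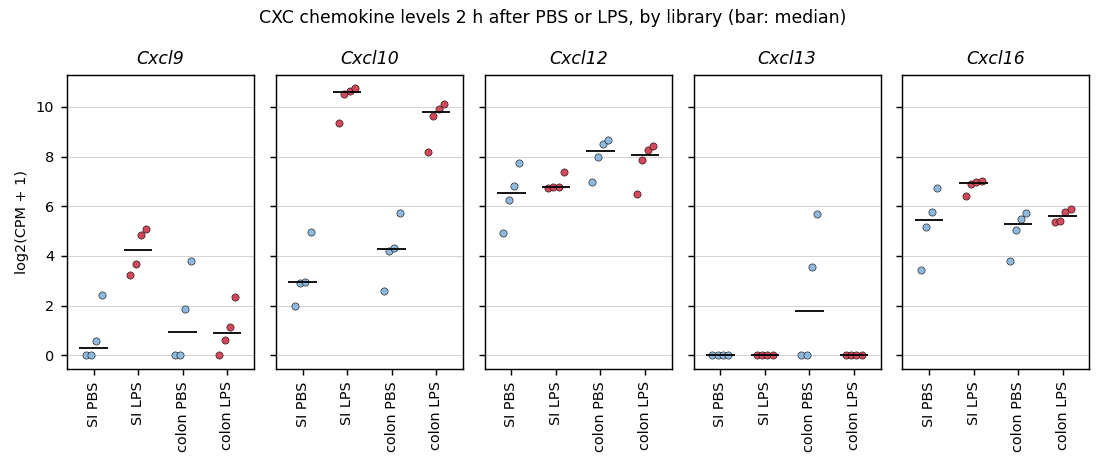
Level of the 5 members in each library at 2 h, as log2(CPM + 1) on the vertical axis, for PBS and LPS in the small intestine and the colon; each point is 1 library and each bar the group's median. The LPS points of Cxcl10 (294 to 1738 CPM) lie above all PBS points (3.01 to 52.3 CPM) in both regions, and those of Cxcl9 lie above the PBS points in the small intestine only.

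The genes around these chemokines were described from lists made for this purpose. Of 6 receptors and processing enzymes tested at 2 h, 1 rose in the small intestine, Ackr3, the scavenging receptor of Cxcl12 and Cxcl11 (log2 fold change 2.25 ± 0.37), and 0 in the colon. Of 20 genes of interferon, Toll-like receptor and NF-κB signalling tested, 4 rose in the small intestine. They were Irf1, a transcription factor of the interferon response (3.22 ± 0.31), Myd88, an adaptor of Toll-like receptors (2.75 ± 0.41), Rela, an NF-κB subunit (1.83 ± 0.33), and Nfkbia, its feedback inhibitor (3.50 ± 0.31). In the colon 2 of 20 rose, Irf1 (3.42) and Nfkbia (3.32).

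Of 7 genes that induce Cxcl13 or accompany it in lymphoid tissue, Relb (2.55) and Nfkb2 (2.13), subunits of the lymphotoxin branch of NF-κB, rose in the small intestine, and Relb (1.74) in the colon. The median log2 fold changes of the 3 lists were 0.91, 0.50 and 2.13 in the small intestine and 0.60, 0.38 and 0.58 in the colon, against -0.02 and -0.00 over all genes tested. The 6 macrophage markers gave no call in either region. Their sum was 254 to 1549 CPM with PBS and 202 to 1208 CPM with LPS in the small intestine, and 275 to 1346 and 164 to 551 CPM in the colon. The summed neutrophil markers were at 2.21 CPM or less with PBS and at 0 to 158 CPM with LPS in the small intestine. Of the B and plasma cell markers 1, Jchain, the joining chain of secreted antibodies, rose in the small intestine, where their sum was 6.42 to 17.9 CPM with PBS and 11.9 to 937 CPM with LPS, and 0 in the colon. The summed T and NK cell markers were at 11.5 CPM or less in every library. The part of these cells in the change of Cxcl10 was not tested.

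At 24 h 3 members rose with LPS in at least 1 comparison. In wild-type small intestine Cxcl9, Cxcl10 and Cxcl13 rose, by 49.2-fold, 38.4-fold and 119-fold on the fitted scale. In wild-type colon Cxcl10 rose, by 25.6-fold. In Gpr37-/- mice edgeR called 0 members in either region, with Cxcl9 and Cxcl13 at estimates of 3.98 to 6.73 on the log2 scale, while DESeq2 called 2 (Cxcl9 and Cxcl13) in the small intestine and 1 (Cxcl9) in the colon. The share of all genes that DESeq2 called is not given here or below, so its counts cannot be set against a background. Cxcl12 gave no call in any of the 4 comparisons. The 2 h and 24 h tables were analysed separately, and values from the 2 times are set side by side without a test.

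Cxcl10 in wild-type small intestine was at 8.01 CPM in the lowest PBS library, at a median of 16.0 and at 218 CPM in the highest, that of mouse 14, which stood far above the other PBS libraries. The LPS libraries were at 825 (mouse 3), 5281 (mouse 8), 971 (mouse 16) and 261 CPM (mouse 13). All 4 lay above every PBS library, as for Cxcl9 and Cxcl13, where 13.4% of all genes had groups that did not overlap, and mouse 8 stood far above the other 3. In the fit this was a log2 fold change of 5.26 ± 1.07 (edgeR adjusted p = 0.00157). It was 3.84 without mouse 8 and 7.14 without mouse 14, with a call in both fits. Of 14903 genes tested in this comparison 7.17% were called, against 3 of 5 members.

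In wild-type colon, Cxcl10 was at 48.2, 14.5, 40.2 and 28.1 CPM with PBS. With LPS it was at 597, 781, 787, 672 and 1356 CPM, the highest again from mouse 8. The groups did not overlap, as for 13.5% of all genes and 2 of 5 members, and the log2 fold change was 4.68 ± 1.22 (edgeR adjusted p = 0.0154). In this comparison 7.96% of all genes were called, against 1 of 5 members. The call was lost without the PBS library of mouse 19 (adjusted p = 0.0619) or that of mouse 24 (adjusted p = 0.0504), and without the 3 LPS libraries low in Gpr37 (4.43, adjusted p = 0.0848, with 2 LPS libraries left), while the log2 fold change stayed between 4.43 and 4.98 when any 1 library was left out.

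Cxcl9 was at 0 to 25.2 CPM in the 6 PBS libraries of wild-type small intestine (median 13.0). The LPS libraries held 417, 186, 1407 and 499 CPM in mice 3, 8, 16 and 13. None of them overlapped the PBS range, and the log2 fold change was 5.62 ± 1.37 (edgeR adjusted p = 0.00889), or 4.85 without mouse 16. Mouse 8, the highest for Cxcl10, was the lowest for Cxcl9.

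In wild-type colon, Cxcl9 was at 48.5, 3.4, 1.05 and 4.92 CPM with PBS and at 625, 706, 78.1, 395 and 103 CPM with LPS. The groups did not overlap, but the log2 fold change of 4.73 ± 1.54 did not pass the test (edgeR adjusted p = 0.0515). Without the PBS library of mouse 14, at 48.5 CPM, the log2 fold change was 6.98 and the edgeR adjusted p 0.0284. The value also passed with that library kept in other fits. DESeq2 gave an adjusted p of 0.00564, and mice numbered 11 and above alone an edgeR adjusted p of 0.0152, against 0.0882 without the 3 LPS libraries low in Gpr37. All 4 wild-type PBS libraries of the colon came from mice numbered 11 and above, against 2 of the 5 LPS libraries.

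The levels of the 2 Cxcr3 ligands were also set against each other within each library. Per kilobase of exon, the level of Cxcl9 divided by that of Cxcl10 had a median of 0.0128 in the small intestine 2 h after LPS (0.00394 to 0.0168 in 4 libraries) and of 0.000746 in the colon. With PBS at 2 h the medians were 0.00597 (0 to 0.498) and 0.199 (0 to 0.548), and the ranges overlapped those with LPS. At 24 h it had a median of 0.730 in wild-type small intestine (0.0263 to 1.43) and of 0.439 in wild-type colon (0.0566 to 0.782). In Gpr37-/- mice with LPS the medians were 0.508 and 1.10. Cxcl10 was thus the more abundant per length in all 8 LPS libraries at 2 h. Among the wild-type libraries with LPS at 24 h, that of mouse 8 had the lowest ratio in both regions. With PBS at 24 h the median was 0.488 in wild-type small intestine (0 to 1.41) and 0.153 in wild-type colon (0.0196 to 0.750), so that the ranges with PBS and LPS overlapped.

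Cxcl13, the B cell chemokine, was at 0 to 6.65 CPM in the PBS libraries of wild-type small intestine, with a median of 0.892. With LPS it was at 67.2, 86.9, 374 and 257 CPM, all above the PBS range. Its log2 fold change was 6.89 ± 1.53 (edgeR adjusted p = 0.00394), or 8.10 without the highest PBS library, that of mouse 22. In wild-type colon the PBS libraries held 67.4, 1.82, 3.69 and 14.6 CPM and the LPS libraries 8.01, 110, 867, 12.3 and 13.5 CPM, with overlap. Here the log2 fold change of 3.21 ± 1.49 (edgeR adjusted p = 0.173) rested on the library of mouse 3, at 867 CPM, and was 0.73 without it.

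The larger change in the small intestine was not shown to be a difference between the regions. Colon minus small intestine, it was -3.67 ± 1.88 on the log2 scale in the wild type (edgeR adjusted p = 0.675) and -2.76 ± 1.99 in Gpr37-/- mice (edgeR adjusted p = 1.0). For each of these terms edgeR called 0 of 14903 genes (0.0%), DESeq2 called 0 members, and no member had an unadjusted p under 0.05. Within 1 animal the regions could be far apart: mouse 3 had 67.2 CPM of Cxcl13 in the small intestine and 867 CPM in the colon, and mouse 13 had 257 and 8.01 CPM.

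Cxcl16 was at 13.5 to 79.7 CPM with PBS and at 60.0 to 152 CPM with LPS in wild-type small intestine, and at 28.6 to 60.2 and 32.9 to 161 CPM in wild-type colon. Its log2 fold changes were 1.30 ± 0.47 (edgeR adjusted p = 0.0922) and 1.39 ± 0.52 (edgeR adjusted p = 0.0854). The value in the small intestine passed without the PBS library of mouse 14 (1.71, adjusted p = 0.0272) and with the compared groups alone (adjusted p = 0.0488), and that in the colon passed with DESeq2 (adjusted p = 0.0373) and in mice numbered 11 and above (adjusted p = 0.0225). Without the wild-type libraries low in Gpr37 neither passed, at 0.99 (adjusted p = 0.25) and 1.64 (adjusted p = 0.158). Cxcl12 ranged from 264 to 788 CPM with PBS and from 113 to 1045 CPM with LPS in the small intestine. Colonic libraries ranged from 409 to 731 and from 21.1 to 1634 CPM, with mouse 8 lowest and mouse 5 highest. Its log2 fold changes were 0.27 ± 0.67 and 0.25 ± 0.71 (edgeR adjusted p = 0.869 in both).

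Cxcl12 moved with the division by mouse number in most groups, and how many of all genes do so was not counted. In the small intestine with LPS it was at 113 to 387 CPM in the lower-numbered wild-type mice and at 549 to 1045 CPM in the higher-numbered ones, and at 81.6 to 134 against 462 to 984 CPM in Gpr37-/- mice. Gpr37-/- colon held 197 to 210 against 553 to 822 CPM with PBS, and 356 against 721 to 847 CPM with LPS. Wild-type colon with LPS was the exception, where the lower-numbered mice ran from 21.1 to 1634 CPM and enclosed the 602 to 699 CPM of the others. In the higher-numbered mice alone, the log2 fold changes of Cxcl12 with LPS were 0.84 (edgeR adjusted p = 0.155) and 0.33 (0.637) in the wild type, and 0.59 (0.628) and 0.23 (0.852) in Gpr37-/- mice, for small intestine and colon in that order.

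Cxcl13 in the small intestine with LPS divided in the same direction, at 67.2 to 86.9 against 257 to 374 CPM in the wild type and 9.63 to 47.9 against 132 to 375 CPM in Gpr37-/- mice. Its log2 fold change with LPS in the higher-numbered mice alone was 7.38 in wild-type small intestine (edgeR adjusted p = 0.00196) and 7.06 in that of Gpr37-/- mice (adjusted p = 0.0527). In wild-type colon it was 1.49 (adjusted p = 0.511), and 1.48 without the 3 LPS libraries low in Gpr37 (adjusted p = 0.687). The divided groups whose levels are given here hold 1 to 3 libraries each. In the fits of the higher-numbered mice, the wild-type PBS groups hold 5 libraries for the small intestine and 4 for the colon. With LPS groups of 1 to 3 libraries, 25.7% to 44.4% of all genes had genotypes that did not overlap. The share of all genes that separate by mouse number was not counted, and the division was not tested.

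**Figure D2:**
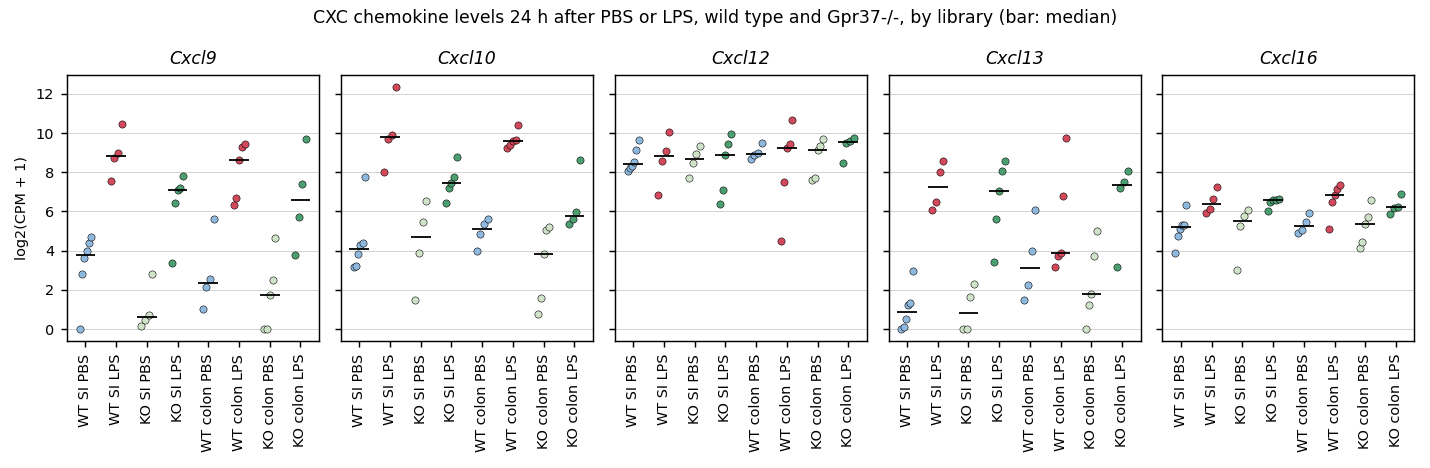
Level of the 5 members in each library at 24 h, as log2(CPM + 1) on the vertical axis, by region, genotype and treatment; each point is 1 library and each bar the group's median. Cxcl9, Cxcl10 and Cxcl13 lie above the PBS points in all 4 LPS libraries of wild-type small intestine, while those of Cxcl12 overlap in every comparison.

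In Gpr37-/- small intestine, Cxcl9 was at 0.396, 6.01, 0.0933 and 0.661 CPM with PBS. With LPS it was at 9.26, 84.5, 147, 222 and 136 CPM, with no overlap. Its log2 fold change of 6.07 ± 1.66 did not pass the test (edgeR adjusted p = 0.0795). Cxcl13 was at 3.96, 0, 2.12 and 0 CPM with PBS and at 270, 375, 47.9, 9.63 and 132 CPM with LPS, again with no overlap, and its log2 fold change was 6.73 ± 1.80 (edgeR adjusted p = 0.0702). Only 0.718% of the 14903 genes tested were called in this comparison, with 6.6% of genes in groups that did not overlap, against 2 of 5 members.

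Both values moved past the threshold without the LPS library of mouse 11 (adjusted p = 0.0342 for Cxcl9 and 0.0465 for Cxcl13) and with DESeq2 (adjusted p = 0.000525 and 0.000297). Cxcl10 was at 43.6, 91.5, 1.77 and 13.9 CPM with PBS and at 145, 86.7, 216, 434 and 176 CPM with LPS, where the lowest LPS library lay under the highest PBS library. Its log2 fold change was 2.49 ± 1.09 (edgeR adjusted p = 0.352). Cxcl16 (1.11 ± 0.51, edgeR adjusted p = 0.382) and Cxcl12 (0.16, adjusted p = 0.976) did not pass either. In all, edgeR called 0 members in this comparison, with 4 at an unadjusted p under 0.05, and DESeq2 called 2. Of all 14903 genes tested, 1709 were under that unadjusted p.

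In Gpr37-/- colon, Cxcl9 was at 2.34, 4.73, 0, 0 and 23.9 CPM with PBS and at 12.9, 168, 826 and 51.6 CPM with LPS, overlapping through the PBS library of mouse 7 and the LPS library of mouse 11. For Cxcl9 the log2 fold change was 5.46 ± 1.48 (edgeR adjusted p = 0.0823). It passed without either of these libraries (7.27 and adjusted p = 0.037 without mouse 7, adjusted p = 0.0399 without mouse 11) and with DESeq2 (adjusted p = 0.00382). Cxcl10 was at 13.0, 31.8, 35.6, 0.683 and 2.03 CPM with PBS and at 47.7, 40.2, 393 and 61.7 CPM with LPS. These groups did not overlap, as in 3.44% of all genes, and the log2 fold change was 3.02 ± 1.05 (edgeR adjusted p = 0.213).

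Cxcl13 in Gpr37-/- colon was at 1.3, 2.5, 0, 12.4 and 31.6 CPM with PBS and at 8.06, 264, 178 and 146 CPM with LPS (log2 fold change 3.98 ± 1.45, edgeR adjusted p = 0.239). The lowest LPS library lay within the PBS range and the other 3 above it. Cxcl16 (0.86 ± 0.50, adjusted p = 0.499) and Cxcl12 (0.47, adjusted p = 0.849) did not pass the edgeR test. The tests called 0 members in this comparison with edgeR, 3 at an unadjusted p under 0.05, and 1 with DESeq2, where edgeR called 0.718% of all genes. Of all 14903 genes tested, 1844 were under that unadjusted p.

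**Figure D3:**
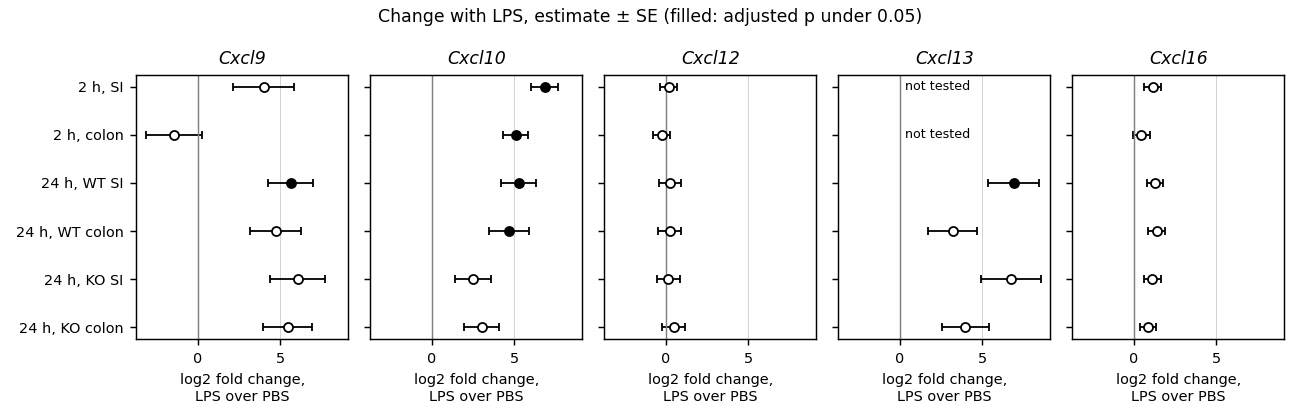
Log2 fold change of each member with LPS against PBS in the 6 comparisons at 2 h and 24 h, as the estimate with its SE, filled where the edgeR adjusted p was under 0.05. The filled points are Cxcl10 in both regions at 2 h and in both wild-type regions at 24 h, and Cxcl9 and Cxcl13 in wild-type small intestine at 24 h; Cxcl12 lies between -0.24 and 0.47 throughout.

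The genotypes were then compared directly, which addresses whether loss of Gpr37 changes the response of these glia to LPS. After PBS, edgeR called 0 of 14903 genes between Gpr37-/- and wild-type libraries in either region (0.0%), and among members 0, with 0 at an unadjusted p under 0.05 and 0 by DESeq2. The ranges of all 5 members overlapped there, where the groups of 1.19% of all genes (small intestine) and 1.38% (colon) did not. After LPS the member with the largest estimated difference was Cxcl10, which had lower values in Gpr37-/- libraries of both regions, without passing the adjusted test in either. Of 5 members edgeR and DESeq2 each called 0 in both regions, with 1, Cxcl10, at an unadjusted p under 0.05. Cxcl9 and Cxcl13 overlapped between genotypes in both regions.

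In the small intestine with LPS, Cxcl10 was at 86.7 to 434 CPM in 5 Gpr37-/- libraries and at 261 to 5281 CPM in 4 libraries labelled wild type. The ranges overlapped through mouse 6 (434 CPM) and mouse 13 (261 CPM); 2.82% of all genes had ranges that did not. The log2 difference, Gpr37-/- minus wild type, was -3.12 ± 1.05 (edgeR adjusted p = 0.415), where 0.0134% of all genes were called. Without mouse 8 it was -1.72 (adjusted p = 0.801), and without mouse 3 it was -3.35 (adjusted p = 0.631).

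In the colon with LPS, Cxcl10 was at 40.2 to 393 CPM in 4 Gpr37-/- libraries and at 597 to 1356 CPM in 5 libraries labelled wild type. The library of mouse 8, the highest of the 5, and those of mice 3 and 5 are the 3 that hold almost no Gpr37. The ranges did not overlap, as for 3.15% of all genes tested. The log2 difference was -2.63 ± 1.10 (edgeR adjusted p = 0.225), where 0.429% of all genes were called. Without mouse 8 it was -2.38 (adjusted p = 0.31), and without mouse 3 it was -2.67 (adjusted p = 0.282). It was -4.07 (adjusted p = 0.122) without the highest Gpr37-/- library, at 393 CPM. Without all 4 libraries labelled wild type that are low in Gpr37 it was -2.35 in the colon (adjusted p = 0.595), with mice 13 and 16 left in the wild-type group, and -3.38 in the small intestine (adjusted p = 0.479). DESeq2 gave adjusted p = 0.0843 here and, for the small intestine, 0.0924.

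The same values were read within the division of the 24 h mice by number. Among mice numbered 10 and below, the wild-type LPS libraries held 825 to 5281 CPM of Cxcl10 in the small intestine against 216 to 434 CPM in Gpr37-/- mice, and 672 to 1356 against 393 CPM in the colon. Among mice numbered 11 and above, the values were 261 to 971 against 86.7 to 176 CPM and 597 to 781 against 40.2 to 61.7 CPM. None of these 4 pairs of ranges overlapped, but with groups of 1 to 3 libraries the same held for 33.5% and 44.4% of all genes in the lower-numbered mice (small intestine and colon) and for 25.7% and 31.3% in the others. In the mice numbered 11 and above alone the log2 difference was -3.81 for the colon (edgeR adjusted p = 0.134) and -2.19 for the small intestine (adjusted p = 0.561), so neither passed the test.

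The effect of LPS itself was not shown to differ between genotypes. The difference of the log2 fold changes, Gpr37-/- minus wild type, was -2.77 ± 1.39 for Cxcl10 in the small intestine (edgeR adjusted p = 1.0) and -1.66 ± 1.45 in the colon (adjusted p = 0.669). For both terms edgeR called 0 of 14903 genes (0.0%), no member was at an unadjusted p under 0.05 and DESeq2 called 0 members. Cxcl9 differed between genotypes with LPS by -2.39 ± 1.29 in the small intestine (edgeR adjusted p = 0.705) and by -0.53 ± 1.28 in the colon (adjusted p = 0.873). Cxcl13 differed by -0.23 ± 1.32 and -0.44 ± 1.33 (edgeR adjusted p = 0.993 and 0.904), and the colon value was 2.03 without mouse 3.

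Of the surrounding genes at 24 h, Irf7, an interferon-induced transcription factor, rose with LPS in all 4 comparisons, by 3.86 ± 0.34 and 3.35 in wild-type small intestine and colon and by 3.08 ± 0.38 and 3.40 ± 0.36 in Gpr37-/- mice on the log2 scale. It was 1 of 6 genes of the interferon, Toll-like receptor and NF-κB list that rose in wild-type small intestine, with Stat2 (1.28), Irf8 (1.75), Myd88 (1.40), Rela (1.32) and Nfkbia (2.36), among 20 tested. In wild-type colon Irf7, Rela (1.53) and Nfkbia (2.64) rose, and in Gpr37-/- mice Irf7 alone.

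Of the genes tied to Cxcl13, 3 of 9 rose in wild-type small intestine, namely Tnfrsf1a, a TNF receptor (1.20), Relb (1.48) and Ccl19, a lymphoid chemokine (4.81 ± 1.19), and Relb (1.45) in wild-type colon. Among 10 receptors and processing genes 0 rose in wild-type small intestine and 1 fell, Dpp4, a protease that trims Cxcl10 and Cxcl12 (-3.85 ± 1.22). In wild-type colon 1 of 10, Ackr4, another scavenging receptor, fell (-2.86). The counts of 1 in 10 lie near the 7.17% and 7.96% of all genes called in these comparisons. Between genotypes 0 genes of these lists were called by edgeR.

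Markers of glia and of other cells were read in the same libraries. Of the 7 glial markers, Gfap, an intermediate filament of glia, rose in wild-type small intestine (2.58 ± 0.63) and Fabp7, a fatty acid-binding protein, fell (-3.84 ± 0.95). In wild-type colon Fabp7 (-2.67 ± 0.86) and Entpd2, an ectonucleotidase (-1.48 ± 0.33), fell, as did 1 of 5 endothelial markers, Tek (-3.33 ± 1.06). In Gpr37-/- mice edgeR called 0 of these. The summed level of 6 neutrophil markers in wild-type small intestine was 7.41 to 837 CPM with LPS against 0 to 3.61 CPM with PBS, and 5 of the 6 rose. In wild-type colon the sum was 9.32 to 2165 against 0.0965 to 144 CPM, and 1 marker rose. In Gpr37-/- mice it was 7.74 to 1815 against 0.124 to 1.39 CPM in the small intestine and 3.14 to 491 against 0 to 7.66 CPM in the colon, with 1 marker called in each. The 6 macrophage markers gave no call with LPS in any of the 4 comparisons, nor did the 4 T and NK cell markers tested; the sum of all 6 of the latter was at 71.9 CPM or less in LPS libraries.

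The summed macrophage markers stood higher with LPS in the small intestine of Gpr37-/- mice, at 251 to 2087 CPM (median 1100) against 45.6 to 441 CPM (median 301), with a median log2 fold change of 2.20. In the colon of those mice they were at 178 to 697 against 71.1 to 1318 CPM (medians 267 and 254). In the wild type the ranges were 295 to 1158 against 122 to 1266 CPM (small intestine) and 233 to 1784 against 127 to 448 CPM (colon). The wild-type median was also higher with LPS in the small intestine, at 604 against 247 CPM, and was 379 CPM with either treatment in the colon. Fibroblast markers in wild-type colon summed to 294 to 8813 CPM with LPS against 11905 to 20043 CPM with PBS, without overlap, and 1 of 5, Col1a1, a fibrillar collagen, fell; it also fell in wild-type small intestine. Markers of interstitial cells of Cajal in wild-type colon summed to 24.5 to 149.9 CPM with LPS and 151 to 457 CPM with PBS, with 0 of 3 called by edgeR. Mesothelial markers in wild-type small intestine summed to 145 to 321 CPM with LPS against 499 to 2355 CPM with PBS, again without overlap, with 0 of 4 called by edgeR. The groups of 13.5% of all genes in wild-type colon and of 13.4% in wild-type small intestine did not overlap either. All 4 PBS libraries of wild-type colon came from mice numbered 11 and above, against 2 of the 5 with LPS. The part of these cells in the changes of the chemokines was not tested.

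At the untreated sites 3 of 5 members were called between the plexuses in each region, and 1 of 5 between the regions in each plexus. Of all genes, 3.19% were called between the regions of the myenteric plexus and 5.18% between those of the submucosal plexus. The myenteric call, for Cxcl13, was lost in 7 of 11 fits without 1 library and with sex as a covariate. Cxcl13 passed the filter on low counts there only with the submucosal libraries in the fit. Cxcl9 and Cxcl16 were higher in the submucosal than in the myenteric libraries of both regions, Cxcl13 in the small intestine and Cxcl12 in the colon. The ranges of Cxcl10 overlapped at all 4 sites. These differences stood beside large differences in markers of immune and other cells, given below. In the comparisons of the plexuses 21.8% of all 14090 genes tested were called for the colon and 43.5% for the small intestine.

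Cxcl16 was at 78.8, 280, 197, 358, 429 and 434 CPM in the submucosal plexus of the small intestine. The myenteric libraries of that region held 33.6 to 106 CPM. Mouse M1, at 78.8 CPM, was the 1 submucosal library within the myenteric range. The log2 difference was 2.28 ± 0.49 (edgeR adjusted p = 0.000864). In the colon the submucosal libraries held 250, 15.0, 222, 326 and 209 CPM against 24.5 to 53.4 CPM in the myenteric ones, a log2 difference of 2.46 ± 0.55 (edgeR adjusted p = 0.00337). The value of 15.0 CPM came from mouse M3, under every myenteric library.

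Cxcl9 was at 10.2 to 64.1 CPM in the submucosal plexus of the small intestine (median 20.8) against 0 to 16.5 CPM in the myenteric plexus, where 3 of 6 libraries were at 0. The log2 difference was 2.63 ± 1.04 (edgeR adjusted p = 0.0445), or 3.76 without the highest myenteric library, that of M1. In the colon it was at 48.5, 3.61, 46.2, 52.1 and 40.7 CPM against 0 to 6.22 CPM, a log2 difference of 3.30 ± 1.17 (edgeR adjusted p = 0.047). Mouse M3 was again the low submucosal library, at 3.61 CPM, inside the myenteric range.

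Both calls for Cxcl9 were near the threshold, and both were lost with sex as a covariate, at log2 differences of 3.26 for the colon (edgeR adjusted p = 0.0558) and 2.54 for the small intestine (0.0571). The small-intestinal call was also lost with the compared groups alone (2.63, adjusted p = 0.0587). The colonic call was lost with a block for same-numbered libraries (3.08, adjusted p = 0.0628). In the colon the call was lost in 8 of the 10 fits without 1 library (all but those without the myenteric library of F3 or the submucosal library of M3), with an adjusted p of at most 0.0972. In the small intestine it was lost in 7 of 12 (without the myenteric library of M2, M3, F2 or F3 or the submucosal library of M2, F1 or F3), with an adjusted p of at most 0.107.

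Cxcl13 was at 2.52 to 27.2 CPM in the submucosal plexus of the small intestine (median 9.79). In the myenteric plexus 5 of 6 libraries were at 0 and the other, from mouse F3, held 4 counts, or 0.571 CPM. The groups did not overlap, as for 25.5% of all genes tested, and the fitted log2 difference was 6.52 ± 1.32 (edgeR adjusted p = 0.000467). Since the myenteric group rests on these 4 counts, the size of the difference depends on them. In the colon the submucosal libraries held 38.8, 17.3, 21.0, 24.4 and 9.26 CPM, against 0 in 3 myenteric libraries and 10.5 and 8.93 CPM in those of F2 and F3 (log2 difference 2.49 ± 1.09, edgeR adjusted p = 0.106).

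Cxcl12 set the submucosal plexus of the colon apart. It was at 707, 862, 778, 935 and 899 CPM there, above every library of the other 3 sites. In the submucosal plexus of the small intestine it was at 112 to 575 CPM, in the myenteric plexus of the colon at 120 to 484 CPM and in that of the small intestine at 172 to 386 CPM. The log2 difference was 1.63 ± 0.38 between the regions within the submucosal plexus (edgeR adjusted p = 0.0133; 5.18% of all genes called, 5.66% not overlapping, against 1 of 5 members for both). Between the plexuses of the colon it was 1.34 ± 0.40 (edgeR adjusted p = 0.0195; 12.6% of all genes not overlapping), and the call was lost without the myenteric library of M2 (adjusted p = 0.0509). The interaction of plexus and region, 1.31 ± 0.53, did not pass the test (edgeR adjusted p = 0.234; 1.19% of all genes called). For that interaction edgeR and DESeq2 each called 0 of 5 members, with 2 at an unadjusted p under 0.05. Of all 14090 genes tested, 2071 were under that p.

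Endothelial markers moved with Cxcl12 between the regions of the submucosal plexus. Cdh5, a cadherin of endothelial junctions, and Kdr, a receptor of vascular endothelial growth factor, were 2 of 5 called higher in the colon, with a median log2 difference of 2.08. Their sum was 183 to 812 CPM there, against 15.1 to 333 CPM for the small intestine. Between the plexuses of the colon, where Cxcl12 differed as well, 0 of 5 endothelial markers were called by edgeR, with sums of 183 to 812 and 269 to 639 CPM. Of the 5 fibroblast markers 0 were called between the regions of the submucosal plexus. The part of endothelial RNA in the level of Cxcl12 was not tested.

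Between the regions of the myenteric plexus, Cxcl13 was the 1 member called of 5, where 3.19% of all genes were (log2 difference, colon minus small intestine, 4.83 ± 1.30, edgeR adjusted p = 0.044). In the colon its counts came from F2 and F3, and the groups overlapped at 0, where 3.14% of all genes had groups that did not. The call was lost in 7 of 11 fits without 1 library: those without the small-intestinal library of M1, M2, M3, F1 or F2, or the colon library of F2 or F3, with adjusted p from 0.0759 to 0.0935. With sex as a covariate the call was lost too (4.49, adjusted p = 0.063), as it was with a block for same-numbered libraries (4.37, adjusted p = 0.134). With the compared groups alone Cxcl13 did not pass the filter on low counts. The fitted size rests on the 4 counts of F3 in the small intestine, where the other libraries were at 0.

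Other genes and markers differed in the same comparison. Of the 9 genes tied to Cxcl13, 1 was called higher in the colon, Ccl21a, a lymphoid chemokine with near-identical gene copies that make its counts uncertain (6.10 ± 0.88). Called higher in the colon were 4 of 5 fibroblast markers, 2 of 5 smooth muscle markers and 1 of 3 markers of interstitial cells of Cajal. Of the 6 neuron markers 5 were lower, and of the 7 glial markers 1, Fabp7. Fibroblast markers summed to 2605 to 11997 CPM in the colon against 1229 to 2068 CPM, and neuron markers to 77.9 to 215 against 521 to 1531 CPM, both without overlap. The part of these cells in the difference of Cxcl13 was not tested. The interaction of plexus and region for Cxcl13 was -4.03 ± 1.62 (edgeR adjusted p = 0.227).

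Ordered by mean level, Cxcl9 ran from the submucosal plexus of the colon (38.2 CPM) over that of the small intestine (28.5) to the myenteric plexuses, at 4.58 for the small intestine and 3.85 for the colon, each neighbouring pair with overlapping ranges. Cxcl10 ran from 37.4 to 23.8 CPM with overlap at each step. For Cxcl12 the step from 836 CPM in the submucosal plexus of the colon to 330 CPM in its myenteric plexus had no overlap, and the lower values of 271 and 264 CPM in the small intestine overlapped. Cxcl13 ran from 22.1 and 12.6 CPM in the submucosal plexuses of colon and small intestine to 3.88 and 0.0951 CPM in the myenteric ones. Cxcl16 ran from 296 and 204 CPM in the submucosal plexuses of small intestine and colon to 61.1 CPM in the myenteric plexus of the former and a lower mean in that of the latter.

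**Figure D4:**
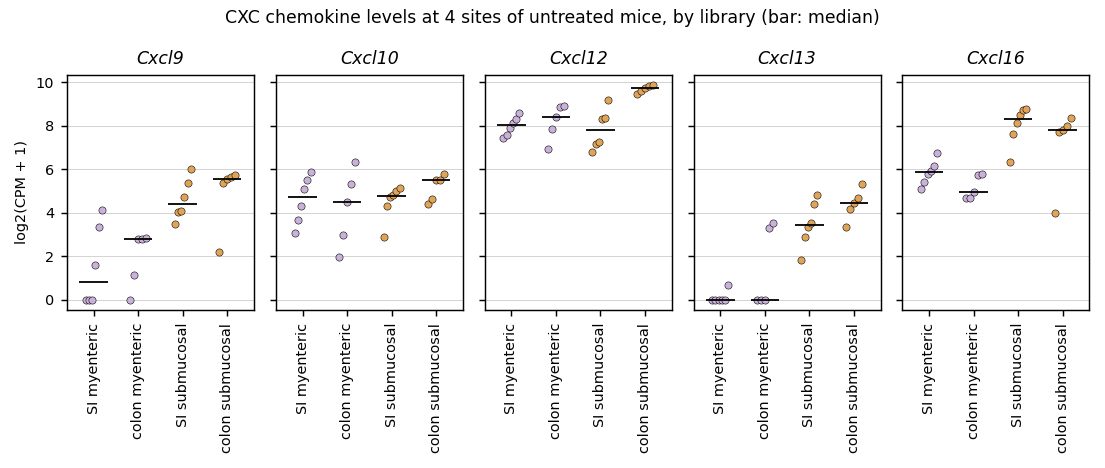
Level of the 5 members in the 22 untreated libraries, as log2(CPM + 1) on the vertical axis, at the 4 sites; each point is 1 library and each bar the group's median. Cxcl12 in the submucosal plexus of the colon (707 to 935 CPM) lies above the other sites, and the low submucosal colon point of Cxcl9 (3.61 CPM) and Cxcl16 (15.0 CPM) is mouse M3.

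Immune markers moved with the plexus in the same libraries. The summed level of 6 macrophage markers in the small intestine was 1704 to 9663 CPM in submucosal and 118 to 1784 CPM in myenteric libraries, and 89.6 to 4106 against 73.1 to 454 CPM in the colon. Called higher in submucosal libraries were 5 of the 6 markers in the colon and 6 of 6 in the small intestine. All 5 B and plasma cell markers were higher in both regions, with sums of 14048 to 131977 against 3.18 to 1089 CPM and of 728 to 44968 against 4.6 to 297 CPM. All 6 T and NK cell markers were higher too, at 128 to 360 against 0 to 3.57 CPM and 1.14 to 213 against 0 to 3.26 CPM.

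Glial markers went the other way, with 7 of 7 called lower in the submucosal plexus of the small intestine and 3 of 7 in that of the colon. Their sum was 92.8 to 388 against 1581 to 2523 CPM in the small intestine. Neuron markers summed to 28.5 to 94.3 against 521 to 1531 CPM there, and to 23.0 to 47.1 against 77.9 to 215 CPM in the colon. For smooth muscle the sums were 61.5 to 998 against 892 to 6587 CPM and 721 to 2946 against 5064 to 17181 CPM. Epithelial markers stood higher in the submucosal plexus, at 940 to 3995 against 4.9 to 149 CPM and 1164 to 4490 against 3.76 to 1341 CPM. Mouse M3, the low submucosal colon library for Cxcl9 and Cxcl16, was also the lowest of its group for macrophage markers (89.6 CPM), T and NK cell markers (1.14 CPM) and B and plasma cell markers (728 CPM). The part of these cells in the levels of the chemokines was not tested.

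**Figure D5:**
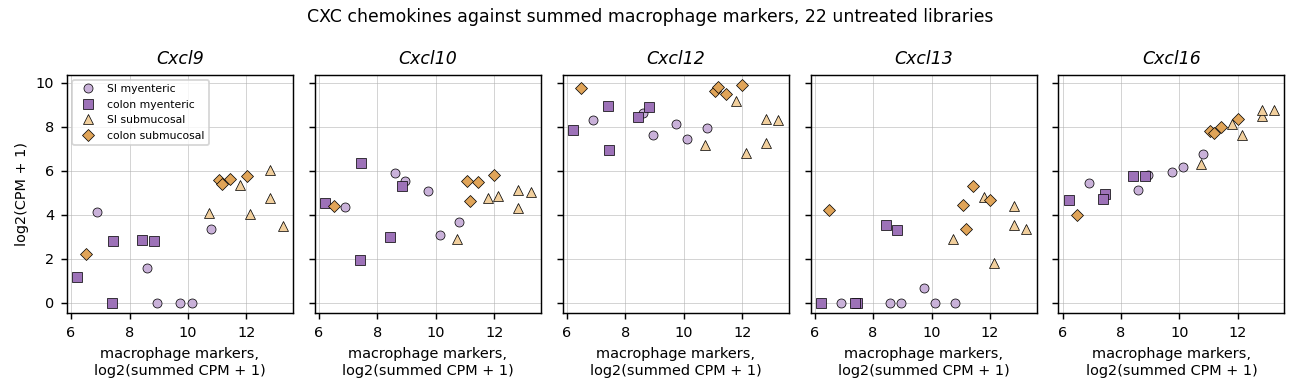
Level of each member against the summed level of 6 macrophage markers in the 22 untreated libraries, both as log2(CPM + 1), coloured by site. The submucosal libraries of the small intestine lie at 1704 CPM or more of macrophage markers, mouse M3 of the submucosal colon lies at 89.6 CPM, and the points of Cxcl16 follow that axis more closely than those of Cxcl10 or Cxcl12.

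The receptors were read against the plexus as well. In the submucosal plexus of both regions Cxcr3, Cxcr4, Cxcr5 and Cxcr6, receptors of T, B and other leukocytes for Cxcl9 and Cxcl10, Cxcl12, Cxcl13 and Cxcl16 in that order, were higher, and in the small intestine Mmp9, a matrix protease, also. That was 4 of 11 receptor and processing genes tested in the colon, where 21.8% of all genes were called, and 5 of 11 in the small intestine, where 43.5% were. Of the 21 genes of interferon, Toll-like receptor and NF-κB signalling tested, 9 were higher for the small intestine and 6 for the colon. Shared by both were Ifng, which encodes interferon gamma, its receptor chains Ifngr1 and Ifngr2 (1.14 for the small intestine and 1.39 for the colon), the transcription factors Irf1 and Irf8 (3.42 and 2.31) and the feedback inhibitor Socs1. Tyk2, Irf3 and Myd88 were called for the small intestine, and the counts of both lists there lie near the share of all genes called. Of the 9 genes tied to Cxcl13, 4 were higher in the colon (the lymphotoxin genes Lta and Ltb, Tnf and Tnfsf11) and 1, Ccl21a, lower (-2.52). In the small intestine 5 were higher, namely Lta, Ltb, Tnfsf11, Relb (0.91) and Nfkb2 (0.74).

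Between the regions of the submucosal plexus, where 5.18% of all genes were called, 3 of 11 receptor and processing genes were. Ackr3 was higher in the colon (2.32 ± 0.49), as was its ligand Cxcl12, while Cxcr5 (-2.81 ± 0.73) and Mmp9 (-6.00 ± 1.07) were lower. The B cell marker Ms4a1, 1 of 5 B and plasma cell markers called, was lower too, and Ccl21a was higher (3.09 ± 0.77). The part of B cell RNA in the level of Cxcr5 was not tested.

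For each member the genes most like it across libraries were taken by Pearson correlation of log2 CPM, as a description with no test. The libraries share their treatment and site, which by themselves give correlations. Over the 37 libraries at 24 h, Cxcl9 was most like Ptx3 (r = 0.917), a secreted pattern recognition protein, Ubd (0.899) and Gbp4 (0.875), an interferon-induced GTPase. Within the LPS libraries these were 0.847, 0.885 and 0.862, and within the PBS libraries 0.786, 0.569 and 0.470. Cxcl10 was most like Irgm1 (0.899), Rsad2 (0.896) and Trex1 (0.891), of which Irgm1 and Rsad2 are interferon-induced genes. Within the 18 LPS libraries alone these values were 0.932 for Irgm1, 0.917 for Rsad2 and 0.636 for Trex1, and within the 19 PBS libraries 0.561, 0.556 and 0.806.

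Cxcl13 was most like Lcn2 (0.836), Saa3 (0.823) and Cp (0.818), which encode acute-phase proteins, but within the LPS libraries the values were 0.152, 0.593 and 0.377, and within the PBS libraries 0.726, 0.452 and 0.579. Cxcl12 was most like Col4a1 (0.892), a basement membrane collagen, Tmem204 (0.840) and Lamc1 (0.829), a laminin subunit, and within the LPS libraries the values were 0.935, 0.902 and 0.92, against 0.723, 0.851 and 0.513 within the PBS libraries. Cxcl16 was most like Zmynd15 (0.912), the gene whose exons overlap it, Icam1 (0.815) and Ifitm2 (0.796). Within the LPS libraries the values were 0.847, 0.250 and 0.512, and within the PBS libraries 0.832, 0.803 and 0.667. Among the members, the correlation of Cxcl9 with Cxcl10 was 0.758 and that of Cxcl10 with Cxcl12 was -0.28.

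Over the 22 untreated libraries Cxcl16 was most like H2-Ab1 (0.974), which encodes a chain of the MHC class II molecule, Lyz2 (0.973) and C1qb (0.969), genes of macrophages and related cells. Within the 11 submucosal libraries the values were 0.973, 0.990 and 0.964, and within the 11 myenteric ones 0.919, 0.889 and 0.926. Cxcl12 was most like Tmem119 (0.835), Bmp4 (0.825) and Col1a2 (0.816), and within the submucosal libraries these were 0.931, 0.918 and 0.877, against 0.580, 0.555 and 0.762 within the myenteric ones. Cxcl10 had no gene above 0.711, its value with Rnf135, with Cyth2 (0.706) and Gbp9 (0.671) next. Cxcl9 was most like Serpina3g (0.894), Thumpd3 (0.864) and Eef1a1 (0.841). Within the submucosal libraries these were 0.833, 0.0539 and 0.397, against 0.730, 0.890 and 0.721 within the myenteric ones. Cxcl13 was most like Spint1 (0.909), Lrrc59 (0.885) and Birc5 (0.873). These were -0.0465, 0.412 and -0.0708 within the submucosal libraries and 0.812, 0.640 and 0.739 within the myenteric ones.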

How the data were processed

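The authors deposited raw counts of reads per gene symbol in 2 tables, 1 for the untreated and 2 h libraries and 1 for the 24 h libraries. Per the submitters' processing notes, the tools were Trim Galore 0.4.4, STAR 2.5.3 and DESeq2, on build GRCm38; the counting program, annotation and strand setting are not given in the sources used here. Samples were grouped by the deposited labels.

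The counts were analysed with edgeR 4.0.16 in R 4.3.3, in 1 fit per experiment over all its groups (22, 16 and 37 libraries). Genes were filtered with filterByExpr and scaled by TMM. Contrasts of group means were tested two-sided by the quasi-likelihood test, with p-values adjusted by the Benjamini-Hochberg method over all genes tested (14090, 13107 and 14903) and calls made under 0.05. SE is the log2 fold change divided by the square root of F. Log2 CPM used a prior count of 2. Alternatives were DESeq2 1.42.0, RLE scaling, no filter, sex as a covariate, a replicate block, the compared groups alone, each library left out, fits by mouse number, and fits without mouse 3, mouse 8 or the 4 wild-type libraries low in Gpr37, the last 3 chosen after seeing the data. The fit was tested on simulated counts. Plots used matplotlib 3.10.9.

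The members and gene lists were chosen with earlier results of these data known. All members are named, and genes of the pathway lists where they were called; the genes most like a member were the 3 with the highest correlation. A planned comparison of protein sequences was not run, and 1 gene each of the marker and the pathway lists is not reported here.

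Mouse numbers are in the labels of the 24 h libraries, and 15 mice gave both a small-intestinal and a colon library. Their deviations from the group means correlated by -0.044 to 0.237 (median 0.133, 10 of 15 over 0.1), and a block for the mouse was fitted for the terms that compare the regions. Mice with the same number elsewhere are not stated to be 1 animal.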

Additional observations from a re-analysis of the deposited data

Results flagged for a closer look

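In groups of 4 to 10 libraries, a member was looked at again where 1 library lay far from the others relative to the range of its group. This held for 9 of 77 groups, and chance flags about 1 in 20 groups. At the untreated sites, mouse M3 was far below the other submucosal colon libraries for Cxcl9 (3.61 CPM) and Cxcl16 (15.0 CPM), mouse M1 was low for Cxcl10 in the submucosal plexus of the small intestine (6.35 CPM), and mouse F3 was the 1 myenteric small-intestinal library with Cxcl13 (0.571 CPM). At 2 h with LPS in the small intestine, mouse F1 was low for Cxcl10 (644 CPM) and mouse F3 high for Cxcl12 (165 CPM). At 24 h in wild-type small intestine with PBS, mouse 9 had no Cxcl9 (0 CPM) and mouse 14 was high for Cxcl10 (218 CPM). In Gpr37-/- small intestine with LPS, mouse 10 was low for Cxcl16 (63.0 CPM).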

How the results depend on the processing

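Over 1879 refits of a member and comparison, 1704 kept the sign and the side of the threshold, 32 lost a call, 14 gained one and 129 changed sign, none of these with a call in either fit. The log2 fold change of Cxcl10 at 2 h was called in every fit without 1 library, at 6.51 to 7.99 in the small intestine and 4.74 to 5.82 in the colon. The number of members called between the regions of the untreated myenteric plexus fell from 1 to 0 with sex as a covariate, with the replicate block and with the compared groups alone, where Cxcl13 did not pass the filter on low counts. In wild-type colon at 24 h it rose from 1 to 3 with DESeq2 and in mice numbered 11 and above. It fell there to 0 without the 3 LPS libraries low in Gpr37. With DESeq2 it rose from 0 to 2 in Gpr37-/- small intestine and from 0 to 1 in Gpr37-/- colon. The share of all genes called in these fits is not given here, and the cause was not tested.

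Without 1 library each, the members called numbered 0 to 1 between the regions of the myenteric plexus, 1 to 3 and 2 to 3 between the plexuses of colon and small intestine, and with LPS at 24 h 3 to 4 and 0 to 2 in wild-type small intestine and colon and 0 to 2 and 0 to 1 in the Gpr37-/- ones. Log2 values without a call changed sign for Cxcl12 with LPS at 2 h (-0.13 to 0.74 in the small intestine, -0.49 to 0.038 in the colon) and at 24 h (wild type -0.25 to 0.61 and -0.49 to 0.56, Gpr37-/- small intestine -0.28 to 0.44). They did so for Cxcl9 in the colon at 2 h (-2.67 to 0.69) and for Cxcl13 between genotypes with LPS (-0.80 to 0.28 in the small intestine, -0.87 to 2.04 in the colon). The last was 1.20 in mice numbered 11 and above, 2.03 without both libraries of mouse 3 and 1.32 without the wild-type libraries low in Gpr37, both alternatives chosen after seeing the data.

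The replicate block gave 4.37 (adjusted p = 0.134) for Cxcl13 between the regions of the myenteric plexus, 3.08 (adjusted p = 0.0628) for Cxcl9 between the plexuses of the colon and 0.20 for Cxcl9 in the colon at 2 h. Same-numbered libraries had correlations of -0.096 to 0.309 in the untreated set (10 of 30 over 0.1) and -0.047 to 0.155 at 2 h (2 of 8), and no label says that they are 1 animal. Not every pair was over 0.1, so the fit without the block is reported, but the 15 pairs known to come from 1 mouse at 24 h also ran from -0.044 to 0.237, so these values do not settle whether the numbers pair the libraries. The block for the mouse at 24 h changed no call. Scaling by total counts in place of TMM moved the 80 group levels by a factor of 0.832 to 1.19, none beyond 1 SD. Cxcl13 was at 0 in most libraries at 2 h, and Cxcl9 was at or near the floor of 3 counts in some myenteric libraries. The part of depth in these low values was not tested.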
